A study of Mus musculus with 12 samples.

Results

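The question addressed here was whether a Piezo1 knockout differed from its parent in the change in gene expression between day 1 and day 28 of osteocyte maturation. Piezo1 is a stretch-activated cation channel of the plasma membrane. The cells were OCY454, a mouse line of the osteoblast to osteocyte lineage. They were kept at 33 °C and matured by a move to 37 °C. The unedited line is called WT. The knockout line, KO, had exons 19 to 21 of Piezo1 removed with CRISPR-Cas9. For every gene, the log2 change of WT over this interval was subtracted from that of KO. This difference of change is the quantity described throughout. It used 8 of the 12 poly(A) RNA libraries of the series, 2 from each of the groups WT day 1, WT day 28, KO day 1 and KO day 28. The remaining 4 libraries, from day 14, entered the filter, the scaling and the estimate of spread, and no contrast. All 13772 genes that passed a filter on low counts were tested. The labels describe 1 KO line and do not say from how many clones it came, nor whether the 2 libraries of a group came from separate cultures. The p-values therefore measure the spread between these libraries, which may be technical, and genotype cannot be told apart from other differences between 2 cell lines.

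Osteocytes are the cells that remain inside bone matrix after osteoblasts have laid it down. They sense load, in part through mechanically gated channels that admit calcium, and signal to the osteoblasts that build bone and the osteoclasts that resorb it. Maturation of this lineage places a heavy load of secreted protein on the endoplasmic reticulum (ER). Cells meet shortage of amino acids or misfolded protein with the integrated stress response, in which phosphorylation of eIF2 lowers general translation and favours that of the transcription factor ATF4, and with the unfolded protein response, which raises ER chaperones.

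Total counts in the 8 libraries ran from 11629055 to 15357427. Levels below are counts scaled to a common library total (CPM) after TMM scaling (trimmed mean of M values), and they compare a gene between libraries, not genes with each other. Replicates lay closer at day 1 than at day 28. A gap of over 1.5-fold separated the day 1 replicates for 5 of 9305 WT genes and 3 of 9227 KO genes at 10 CPM or more. At day 28 it did so for 167 of 9326 WT genes and 62 of 9083 KO genes. The test took the spread of a gene as equal over all 6 groups, day 14 included. Its errors can therefore be too small for genes that varied more at day 28. In WT at day 28, the summed CPM of collagen chains was 18770 in replicate 1 and 14270 in replicate 2, and that of glycolytic genes 3587 and 2499. A row of the count table for a YAP and EGFP transgene held 224 and 75 counts in the WT day 28 libraries and at most 7 in the other 6. In the day 14 libraries it held 82 and 45 counts in WT and 1 and 3 in KO. The labels name no such transgene, and its part in the results was not tested.

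The label's cell type was compared with marker genes. Summed osteoblast and bone matrix genes were between 10080 and 19330 CPM in the 8 libraries, with Col1a1 between 1710 and 6512 CPM and Ibsp between 825 and 2720 CPM. Not every member was abundant, and of the 23 listed 1 had 0 counts in WT day 28 replicate 1. Among defining genes of mature osteocytes, Dmp1 lay between 3.68 and 12.8 CPM, while Sost and Mepe lay at 1.30 CPM or below in every library. Summed markers of blood cells were between 11.2 and 20.5 CPM in 6 libraries and 26.9 and 31.0 CPM in WT at day 28, where Cd34 made up 13.7 and 18.4 CPM, while the leukocyte gene Ptprc stayed at 2.56 CPM or below throughout. Summed endothelial markers were 24.2 and 27.3 CPM in WT at day 28 and at most 12.0 CPM elsewhere, of which Vwf made up 18.7 and 21.6 CPM, with Pecam1 and Cdh5 at 1.31 CPM or below. Summed skeletal muscle markers lay between 7.15 and 14.95 CPM. The part of these cell types in the results was not tested. In bulk RNA, fewer cells of a type and less RNA per cell cannot be told apart.

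Piezo1 (chr8:122481698-122551329, minus strand, GRCm38) was itself among the genes that differed. Its levels were 216 and 215 CPM in WT and 169.8 and 169 CPM in KO at day 1, and 235 and 242 CPM in WT and 282 and 276 CPM in KO at day 28. The KO libraries were below WT at day 1 and above WT at day 28, with no overlap on either day. The difference of change was 0.57 ± 0.08 (adjusted p = 4.76e-05) in log2 units, given with its standard error and an adjusted p from edgeR's quasi-likelihood test with Benjamini-Hochberg adjustment over all 13772 genes. Counts per gene do not show the deleted exons, so this value does not check the knockout. Exons of Piezo1 overlap those of Ctu2 on the other strand. Whether counting used strand is not given in the sources used here.

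Of the 13772 genes, 2759 passed the test of the difference of change at an adjusted p below 0.05, which is 20.0%. The change was higher in KO for 1456 genes (10.6%) and lower for 1303 (9.46%). The difference exceeded 2-fold for 273 of the higher genes (1.98% of genes tested) and 357 of the lower genes (2.59%). The median over all genes was 0.0083 log2 units. Within each line many genes moved: 7646 genes (55.5%) changed from day 1 to day 28 in KO and 6611 (48.0%) in WT. Between the lines, 5544 genes (40.3%) differed at day 1 and 5646 (41.0%) at day 28. The KO and WT changes share no library, nor do the day 1 and day 28 differences, but the difference of change is built from all 4 and is not independent of any of them. With 1 of the 8 libraries left out, the count of calls rose without WT day 28 replicate 2 and fell without any other. Leaving out KO day 1 replicate 1 lowered the count of 2759 to 1810 genes, and leaving out KO day 1 replicate 2 lowered it to 1703.

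**Figure D1:**
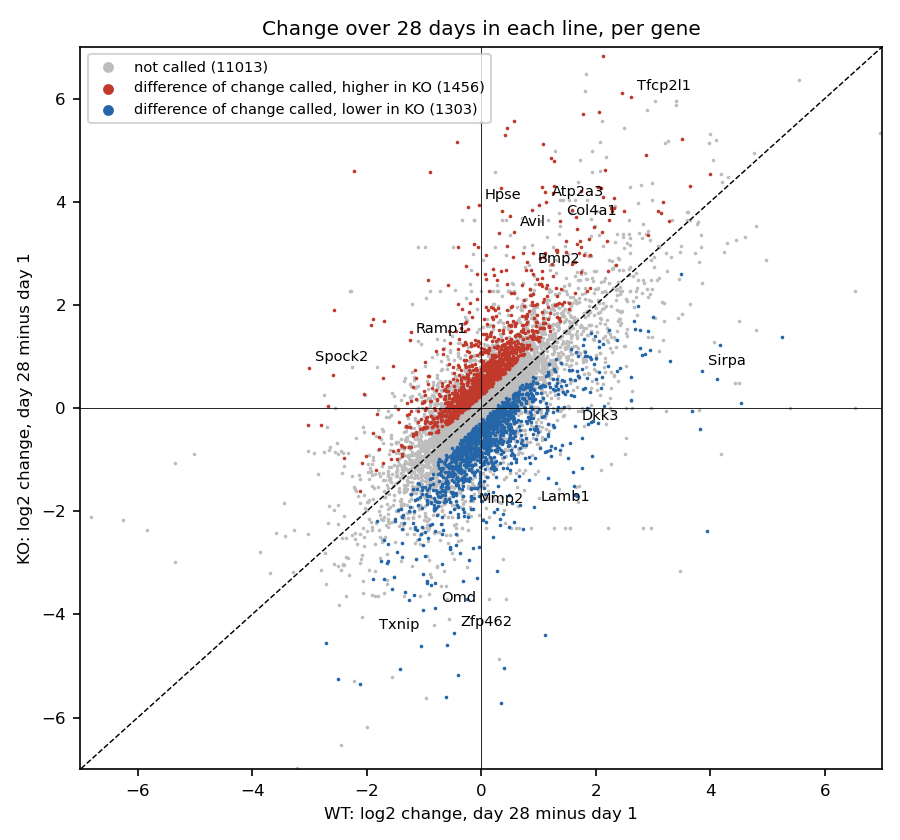
Each point is 1 of the genes tested, placed by its log2 change from day 1 to day 28 in WT (horizontal) and in KO (vertical), with 8 genes beyond 7 log2 units not drawn. Red marks the 1456 genes whose change was higher in KO, blue the 1303 whose change was lower, grey the rest, and the dashed line equal change; of the coloured points, 224 were called in opposite directions in the 2 lines.

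The 2759 genes differed in several ways. The largest class, 990 genes or 35.9%, changed in KO with no call in WT, and 512 genes (18.6%) changed in WT with no call in KO. Another 590 genes rose in both lines, 465 of them more steeply in KO, and 413 fell in both lines, 333 of them more steeply in KO. Opposite directions were called for 224 genes (8.12%), of which 113 rose in KO and fell in WT and 111 did the reverse. Leaving out 1 library moved the count of 224 to 135 (KO day 1 replicate 1), 133 (KO day 1 replicate 2), 143 (WT day 1 replicate 1) and 376 (WT day 28 replicate 2). Sorted by day instead, 973 of the 2759 genes (35.3%) differed between the lines at day 1 with no call at day 28, and 898 (32.5%) at day 28 with no call at day 1. A further 384 genes (13.9%) differed on both days with opposite sign. Among abundant genes (average log2 CPM 5 or more), such a crossing was found for 163 genes that went from lower to higher in KO and for 128 that went from higher to lower.

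The 6 genes with the smallest p were Avil, Atp2a3, Dkk3, Bmp2, Cdsn and Col4a1. Avil, which encodes the actin-severing protein advillin (chr10:127000709-127020994, plus strand), measured 359 and 390.3 CPM in WT and 52.8 and 48.0 CPM in KO at day 1, and 528 and 584 CPM in WT and 522 and 545 CPM in KO at day 28. KO libraries were far below WT at day 1 and overlapped with them at day 28. Its difference of change was 2.84 ± 0.10 (adjusted p = 1.69e-13), with a KO change of 3.41 ± 0.08 and a WT change of 0.57 ± 0.07. Exons of Avil overlap Tsfm on the opposite strand. Atp2a3 encodes SERCA3, a pump that returns calcium to the ER (chr11:72961169-72993044, plus strand). It measured 80.8 and 83.0 CPM in WT and 14.1 and 13.2 CPM in KO at day 1, and 165 and 192 CPM in WT and 224 and 209 CPM in KO at day 28. The KO level started below WT and ended above it, without overlap on either day. The difference was 2.86 ± 0.12 (adjusted p = 1.39e-12).

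Bmp2, a ligand that drives osteoblast differentiation (chr2:133552159-133562885, plus strand), measured 37.1 and 38.1 CPM at day 1 and 68.7 and 68.6 CPM at day 28 in WT, and 48.6 and 47.2 CPM at day 1 and 315 and 301 CPM at day 28 in KO. All 8 values kept the order WT day 1, KO day 1, WT day 28, KO day 28, with no overlap between groups. Bmp2 rose in both lines, by 2.69 ± 0.07 in KO and 0.87 ± 0.07 in WT, and the difference was 1.82 ± 0.10 (adjusted p = 4.83e-11). Dkk3, a secreted member of the Dickkopf family (chr7:112116017-112159057, minus strand), went the other way. Its levels were 59.95 and 61.2 CPM in WT and 92.0 and 97.3 CPM in KO at day 1, and 198 and 179.5 CPM in WT and 72.9 and 75.4 CPM in KO at day 28. WT libraries were lowest at day 1 and highest at day 28, and the difference was -1.99 ± 0.10 (adjusted p = 1.98e-11). Col4a1, a chain of basement membrane collagen, measured 66.9 and 73.0 CPM in WT and 10.7 and 10.4 CPM in KO at day 1, and 194 and 169 CPM in WT and 124 and 136 CPM in KO at day 28. KO was below WT on both days and the gap narrowed, with a difference of 2.25 ± 0.13 (adjusted p = 1.36e-10). Cdsn, which encodes corneodesmosin, measured 247 and 254 CPM in WT and 106 and 108 CPM in KO at day 1, and 169 and 198 CPM in WT and 294 and 313 CPM in KO at day 28. It rose in KO and fell in WT, and the difference was 1.95 ± 0.11 (adjusted p = 7.84e-11).

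**Figure D2:**
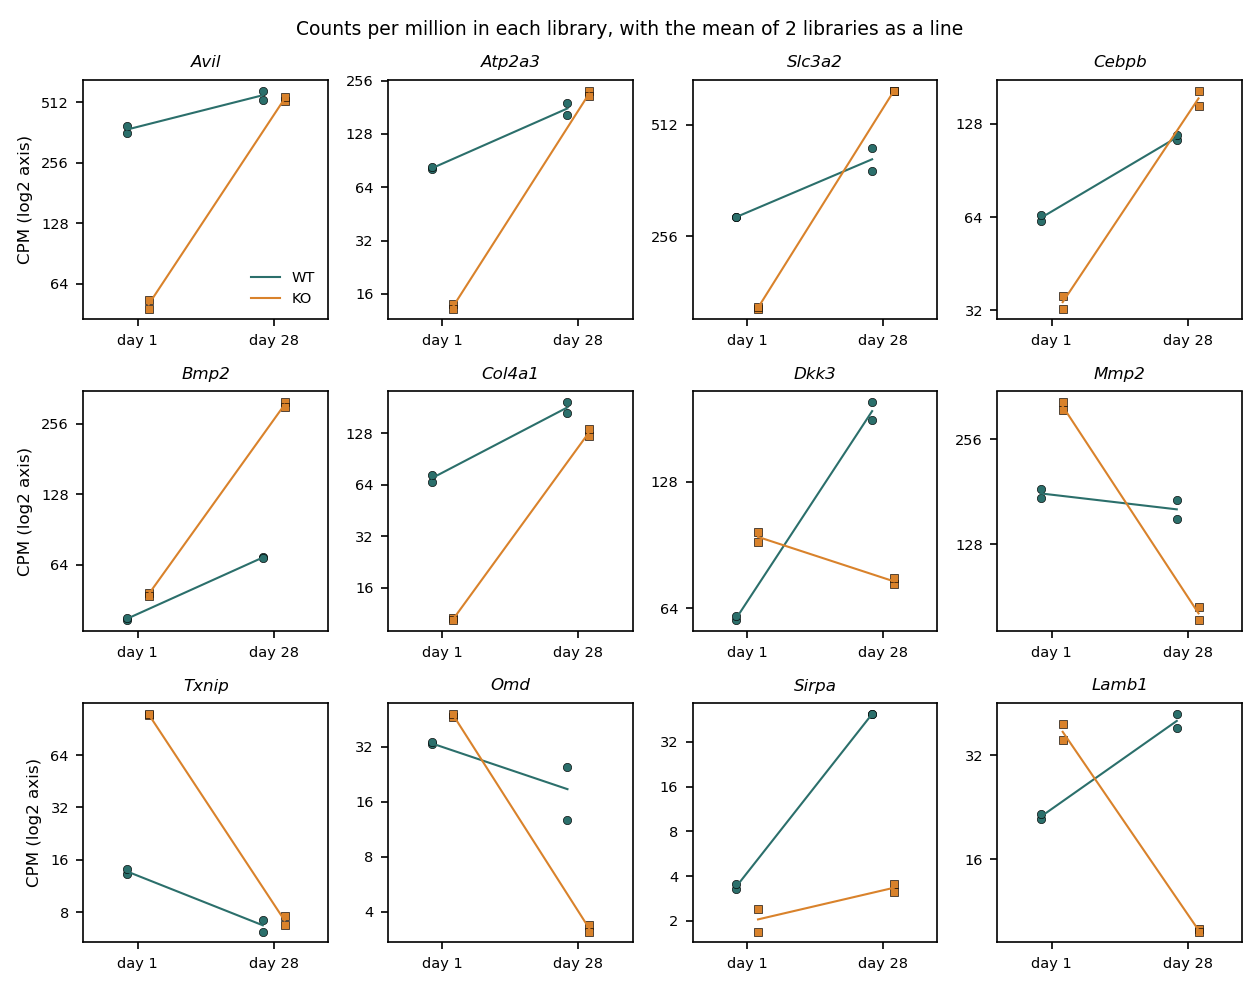
CPM on a log2 axis in each library at day 1 and day 28 for 12 named genes, with green circles for WT, orange squares for KO and lines through the mean of the 2 libraries. Avil, Atp2a3, Slc3a2, Cebpb, Bmp2 and Col4a1 climb more steeply in KO, whereas Dkk3, Mmp2, Txnip, Omd, Sirpa and Lamb1 have the lower slope in KO.

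Among genes averaging a log2 CPM of 1 or more, with over 3 counts in every group, the 12 highest differences belonged to Hpse (3.98), Spock2 (3.79), Gm6559 (3.53), Tfcp2l1 (3.42), Cd248 (3.38), Ak4 (3.31), Kcnk6 (3.18), Eln (3.09), Lgr6 (3.08), Gm38403 (2.95), Sspo (2.93) and Atp2a3 (2.86). Hpse encodes heparanase, which cleaves heparan sulfate in matrix. Its levels were 24.8 and 23.6 CPM in WT and 0.0854 and 0.221 CPM in KO at day 1, and 25.3 and 21.4 CPM in WT and 2.60 and 2.51 CPM in KO at day 28. WT libraries stayed within the same range, while KO rose from near 0 and stayed far below WT. Its difference was 3.98 ± 0.48 (adjusted p = 4.24e-06), a size that rests on few reads in KO at day 1. Spock2, a matrix proteoglycan, measured 17.6 and 20.0 CPM in WT and 1.45 and 2.06 CPM in KO at day 1, and 1.54 and 3.22 CPM in WT and 3.63 and 2.58 CPM in KO at day 28. WT fell into the range of KO, which had no rise of like size, and the difference was 3.79 ± 0.42 (adjusted p = 1.48e-06). Tfcp2l1, a transcription factor, rose in both lines and measured 9.95 and 10.2 CPM at day 1 and 52.5 and 71.4 CPM at day 28 in WT, and 0.342 and 0.147 CPM at day 1 and 17.2 and 15.4 CPM at day 28 in KO. The KO libraries stayed below WT on both days, and the difference was 3.42 ± 0.47 (adjusted p = 2.00e-05). Its size also rests on few reads in KO at day 1. Eln, the elastin gene, had a difference of 3.09 ± 0.62 (adjusted p = 0.00112). For Cd248, a surface marker of mesenchymal cells, the call was lost when 1 library was left out, at 3.15 (adjusted p = 0.0634) without KO day 28 replicate 2. Gm6559 is annotated as a long non-coding RNA whose exons overlap Gm26677 on the opposite strand.

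The 12 lowest differences belonged to H2-Q6 (-4.43), Zfp462 (-3.88), Pkp2 (-3.55), Shank1 (-3.15), Sirpa (-3.15), Omd (-3.06), Scn1a (-3.02), Ifi207 (-2.94), Gfra1 (-2.93), Txnip (-2.90), Lamb1 (-2.84) and Grhl3 (-2.76). Sirpa encodes the receptor for the "do not eat me" ligand CD47. It measured 3.25 and 3.54 CPM in WT and 2.39 and 1.69 CPM in KO at day 1, and 49.3 and 49.5 CPM in WT and 3.55 and 3.12 CPM in KO at day 28. All libraries were low apart from WT at day 28, and the difference was -3.15 ± 0.31 (adjusted p = 3.18e-07). Txnip, an inhibitor of thioredoxin that also limits glucose uptake, measured 13.2 and 14.2 CPM in WT and 109 and 110.4 CPM in KO at day 1, and 7.26 and 6.19 CPM in WT and 6.75 and 7.61 CPM in KO at day 28. The KO libraries stood far above WT at day 1 and overlapped with them at day 28, for a difference of -2.90 ± 0.19 (adjusted p = 1.47e-09). Omd encodes osteomodulin, a keratan sulfate proteoglycan of bone. Its levels were 33.0 and 33.9 CPM in WT and 46.6 and 48.5 CPM in KO at day 1, and 24.8 and 12.7 CPM in WT and 3.37 and 3.12 CPM in KO at day 28. KO fell to the lowest values of the 8 libraries, and the difference was -3.06 ± 0.29 (adjusted p = 1.93e-07). Zfp462, a zinc finger regulator of chromatin, measured 7.67 and 7.22 CPM in WT and 15.6 and 15.9 CPM in KO at day 1, and 5.37 and 5.37 CPM in WT and 0.692 and 0.815 CPM in KO at day 28, and its difference was -3.88 ± 0.31 (adjusted p = 2.90e-08). H2-Q6 and Ifi207 belong to families of near-identical copies, so their counts are uncertain. Calls were lost without 1 library for Shank1 at -2.78 (adjusted p = 0.0664) without KO day 1 replicate 1, for Ifi207 at -2.60 (adjusted p = 0.106) without KO day 1 replicate 2, and for Gfra1 at -2.98 (adjusted p = 0.0784) without KO day 1 replicate 1, -2.87 (adjusted p = 0.119) without KO day 1 replicate 2 and -2.20 (adjusted p = 0.127) without KO day 28 replicate 2.

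Called changes in opposite directions were led by Ramp1 (2.58), Sox6 (2.42), Hoxb9 (2.35), Rerg (2.06) and Cdsn among genes that rose in KO and fell in WT. Ramp1, a partner of the receptor for calcitonin gene-related peptide, measured 34.9 and 37.9 CPM in WT and 10.5 and 13.2 CPM in KO at day 1, and 17.2 and 13.2 CPM in WT and 37.5 and 23.02 CPM in KO at day 28. KO ended above WT after starting below it. Its KO change was 1.33 ± 0.18 and its WT change -1.25 ± 0.17. Hoxb9, a homeobox factor of trunk patterning, measured 8.26 and 8.99 CPM in WT and 36.3 and 32.3 CPM in KO at day 1, and 2.72 and 3.22 CPM in WT and 63.7 and 56.5 CPM in KO at day 28. It was higher in KO on both days and the gap widened, for a difference of 2.35 ± 0.22 (adjusted p = 1.65e-07). The reverse pattern was led by Lamb1 (-2.84), C2 (-2.57), Aldh3a1 (-2.52), Cav1 (-2.39) and Rgs2 (-2.22). Lamb1, a laminin chain of the basement membrane, measured 20.9 and 21.7 CPM in WT and 35.5 and 39.4 CPM in KO at day 1, and 38.4 and 42.3 CPM in WT and 10.0 and 9.85 CPM in KO at day 28. KO fell below every other group at day 28, and the difference was -2.84 ± 0.17 (adjusted p = 2.04e-10). Cav1, the coat protein of caveolae, measured 18.8 and 18.9 CPM in WT and 27.4 and 28.8 CPM in KO at day 1, and 32.9 and 21.6 CPM in WT and 8.91 and 6.93 CPM in KO at day 28, with a difference of -2.39 ± 0.24 (adjusted p = 4.54e-07). The call for C2, a complement component, was lost at -2.39 (adjusted p = 0.0587) without KO day 1 replicate 2.

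Genes called with 3 counts or fewer in a group numbered 40, of which 10 averaged a log2 CPM of 1 or more, and 9 of those 10 were higher. A gene with almost no counts in KO at day 1 can hardly fall there, so its higher change is favoured by the choice itself. Genes of this class are given by counts because a fold would rest on almost no reads. Map2, a microtubule-associated protein of neurons and osteoblasts, had 204 and 221 counts in WT and 1 and 0 in KO at day 1, and 716 and 542 in WT and 38 and 29 in KO at day 28. The KO libraries went from 1 count in all to far more, and stayed well below WT. Bmp8a, a BMP ligand, had 51 and 67 counts in WT and 0 and 0 in KO at day 1, and 96 and 56 in WT and 6 and 6 in KO at day 28. Hapln4, a link protein of matrix hyaluronan, had 147 and 123 counts in WT and 0 and 2 in KO at day 1, and 118 and 81 in WT and 7 and 28 in KO at day 28. For Mark1, a kinase that acts on microtubule-associated proteins, there were 116 and 127 counts in WT and 0 and 1 in KO at day 1, and 130 and 135 in WT and 7 and 18 in KO at day 28. Each of these genes was counted in every WT library and was almost absent from KO at day 1. Artn, a GDNF family ligand, had 88 and 76 counts in WT and 1 and 1 in KO at day 1, and 97 and 55 in WT and 8 and 10 in KO at day 28. Tspoap1, an adaptor protein, had 182 and 162 counts in WT and 1 and 1 in KO at day 1, and 101 and 96 in WT and 8 and 4 in KO at day 28, and Slc39a8, a zinc importer, had 36 and 22 counts in WT and 2 and 1 in KO at day 1, and 80 and 71 in WT and 19 and 29 in KO at day 28. Nkd2, an inhibitor of Wnt signalling, was the member with a lower change and had 165 and 190 counts in WT and 8 and 12 in KO at day 1, and 177 and 123 in WT and 2 and 1 in KO at day 28. Apart from Map2, each of these calls was lost in 1 or more of the fits that left out a library, with adjusted p = 0.0505 for Hapln4 without KO day 28 replicate 2 as the smallest such value and adjusted p = 0.23 for Slc39a8 without KO day 1 replicate 2 as the largest. With DESeq2 the calls for Artn (adjusted p = 0.0604) and Slc39a8 (adjusted p = 0.101) were lost too, the latter also with limma-voom (adjusted p = 0.0534) and with the 8 libraries alone (adjusted p = 0.053).

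Gene lists are described by counts of called members and by medians, beside 10.6% called higher, 9.46% called lower and a median of 0.0083 over all genes tested. Between the lines, 19.5% of all genes were higher in KO and 20.8% lower at day 1, and 19.8% were higher and 21.2% lower at day 28. From day 1 to day 28, 28.2% of all genes rose in KO and 24.6% in WT. Counts of members that moved by over 1.5 times in another fit are given with the library left out or the setting used. The settings were DESeq2 or limma-voom in place of edgeR, no filter on low counts, a filter at 10 CPM in 2 libraries, library totals without TMM, and the 8 libraries alone. The lists were drawn up with earlier results of these data known and are not independent evidence.

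**Figure D3:**
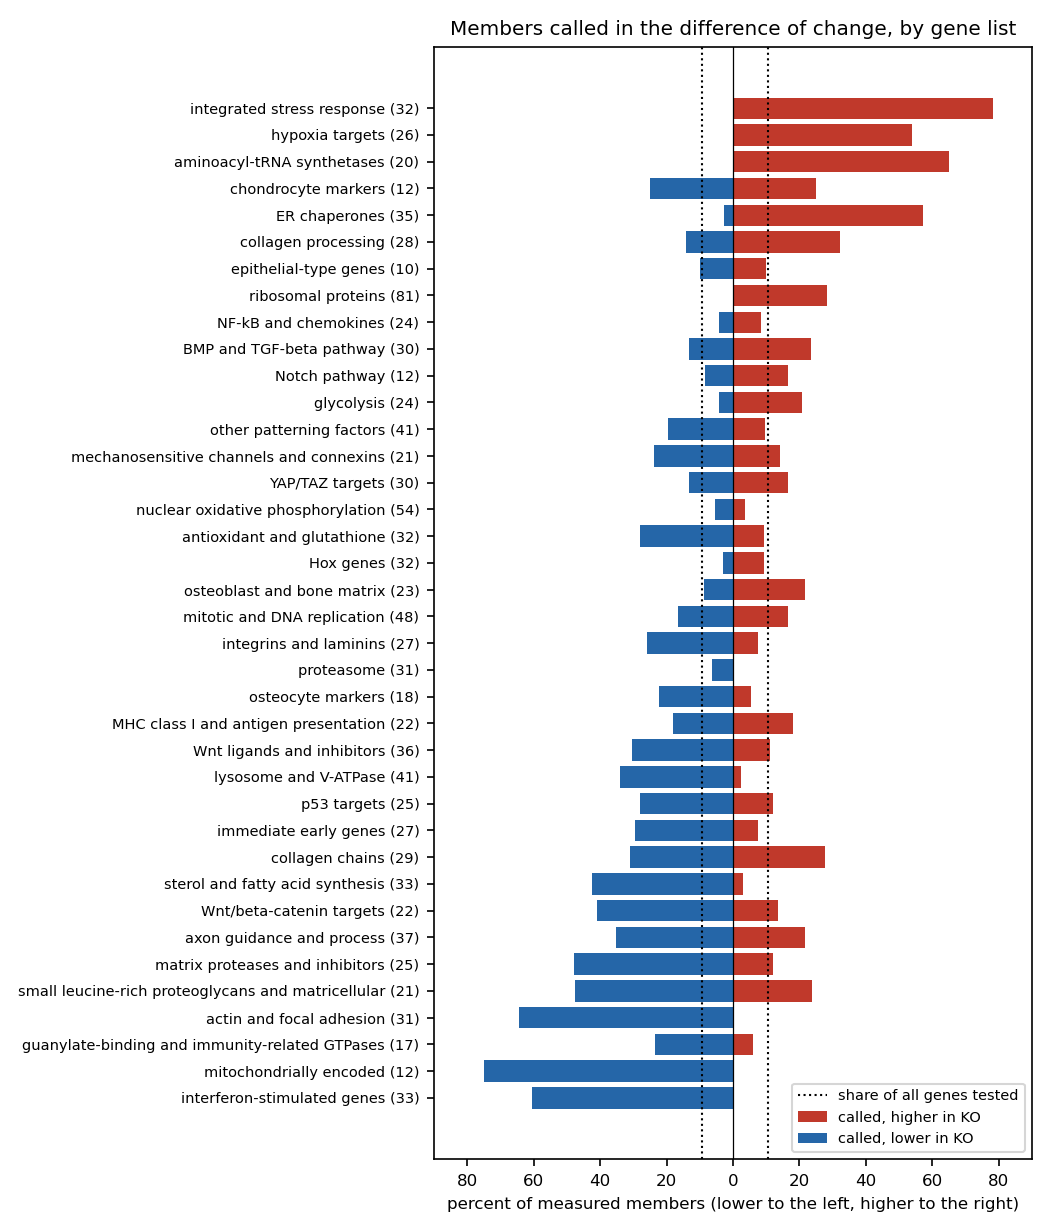
Share of the measured members of each gene list drawn (number in brackets) that were called in the difference of change, higher in KO to the right in red and lower in KO to the left in blue, with dotted lines at the shares over all genes tested, 10.6% and 9.46%. Lists with 9 or fewer measured members, such as osteoclast-regulating factors (8) and adipocyte markers (9), are not drawn. The integrated stress response, aminoacyl-tRNA synthetases, ER chaperones and hypoxia targets extend far to the right, and mitochondrially encoded genes, actin genes and interferon-stimulated genes far to the left.

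The integrated stress response had the most members with a higher change. Of its 32 measured members 25 were higher and 0 lower, with a median difference of 0.91. The median change was 1.27 in KO and 0.43 in WT. At day 1, 28 of the 32 members were lower in KO and 0 higher. At day 28, 11 were higher in KO and 10 lower.

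Trib3, a pseudokinase induced by ATF4, measured 170.2 and 181 CPM in WT and 61.0 and 57.8 CPM in KO at day 1, and 279 and 299.5 CPM in WT and 302 and 318 CPM in KO at day 28. KO libraries were well below WT at day 1 and slightly above WT at day 28. Its difference was 1.67 ± 0.10 (adjusted p = 1.36e-10). Atf4 itself, the transcription factor of the response, measured 537 and 531 CPM in WT and 373 and 366 CPM in KO at day 1, and 748 and 771 CPM in WT and 1023 and 1038 CPM in KO at day 28. It crossed from below WT to above WT with no overlap on either day, and the difference was 0.97 ± 0.08 (adjusted p = 5.54e-08). Slc3a2, the heavy chain of amino acid exchangers, measured 289 and 288 CPM in WT and 163 and 165 CPM in KO at day 1, and 384 and 443 CPM in WT and 633 and 633 CPM in KO at day 28. It crossed in the same way, with a difference of 1.43 ± 0.09 (adjusted p = 9.55e-10). Cebpb, a partner transcription factor of ATF4 that overlaps Tmem189 on the opposite strand, measured 62.4 and 65.0 CPM in WT and 35.6 and 32.5 CPM in KO at day 1, and 114 and 118 CPM in WT and 146 and 164 CPM in KO at day 28, with a difference of 1.33 ± 0.11 (adjusted p = 3.93e-08).

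Vldlr, a lipoprotein receptor and ATF4 target, measured 233 and 224 CPM in WT and 74.4 and 79.0 CPM in KO at day 1, and 217 and 207 CPM in WT and 187 and 196 CPM in KO at day 28. WT had no called change and KO rose towards it, for a difference of 1.43 ± 0.09 (adjusted p = 6.71e-10). Ppp1r15a encodes GADD34, which removes the phosphate from eIF2 and so ends the response. It measured 75.6 and 80.9 CPM in WT and 30.2 and 29.7 CPM in KO at day 1, and 168 and 203 CPM in WT and 195 and 221 CPM in KO at day 28, and its difference was 1.55 ± 0.12 (adjusted p = 2.29e-08). Members that did not pass the test included the transcription factors Atf3 (-0.25 ± 0.16) and Atf5 (0.04 ± 0.10), the autophagy receptor Sqstm1 (0.06 ± 0.09) and the mTOR inhibitor Ddit4 (0.12 ± 0.26).

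The promoters of these genes were read because members of the list moved together. The element bound by ATF4 with C/EBP partners was searched as TGATGNAA on both strands, in windows of 300 bases that run from 250 before to 50 after each RefSeq transcription start (GRCm38). It was present in 10 of 34 windows (29.4%) of the list, in 5 of 12 windows (41.7%) of aminoacyl-tRNA synthetases and in 2.2% of the 13470 windows of all genes tested. The stretches of 60 bases printed here come from called genes, chosen after their values were seen to show the element in both orientations. Capitals mark 1 match in each, and the Slc7a11 stretch holds a second in lower case. Coordinates are GRCm38.
Slc7a11, chr3:50443627-50443686, minus strand: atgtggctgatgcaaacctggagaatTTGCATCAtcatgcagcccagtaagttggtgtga
Vldlr, chr19:27216794-27216853, plus strand: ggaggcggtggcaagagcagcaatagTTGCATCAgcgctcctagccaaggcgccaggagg
Pycr1, chr11:120643818-120643877, minus strand: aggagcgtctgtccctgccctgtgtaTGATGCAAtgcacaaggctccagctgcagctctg
Asns, chr6:7693210-7693269, minus strand: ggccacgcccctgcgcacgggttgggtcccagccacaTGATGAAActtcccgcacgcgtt
Chac1, chr2:119351023-119351082, plus strand: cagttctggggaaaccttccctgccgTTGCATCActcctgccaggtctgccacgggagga
Gars, chr6:55037941-55038000, plus strand: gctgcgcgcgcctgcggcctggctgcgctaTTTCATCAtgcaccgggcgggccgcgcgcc
Of the genes printed, Slc7a11 is a cystine transporter, Asns makes asparagine, Pycr1 makes proline, Chac1 degrades glutathione and Gars charges glycine tRNA. Their differences of change were 1.57, 0.89, 1.31, 0.95 and 0.67. The element was also in windows of Atf3 and Fgf21, which were not called, at -0.25 and -0.13. A match is a description of letters and not evidence of binding. Here and for the elements below, the lists were made of genes known for each response. A share above that of all windows follows in part from that choice and does not bear on the difference of change.

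Aminoacyl-tRNA synthetases charge tRNAs with their amino acids. Of 20 cytosolic enzymes 13 were higher and 0 lower, with a median difference of 0.57, a median KO change of 0.69 and a median WT change of 0.11. In KO at day 1, 14 were lower and 2 higher than in WT, and at day 28 12 were higher and 2 lower. Vars, for valine, measured 211 and 197 CPM in WT and 148 and 148 CPM in KO at day 1, and 227 and 227 CPM in WT and 284 and 275 CPM in KO at day 28. It crossed from below to above WT without overlap, with a difference of 0.77 ± 0.09 (adjusted p = 4.11e-06). Lars, for leucine, measured 232 and 236 CPM in WT and 192 and 194 CPM in KO at day 1, and 184 and 209 CPM in WT and 274 and 264 CPM in KO at day 28, with a difference of 0.73 ± 0.09 (adjusted p = 7.93e-06). Differences for Yars, Gars and Iars were 0.80, 0.67 and 0.73. Those that did not pass included Hars (-0.12 ± 0.11) and Rars (0.11 ± 0.09). Yars overlaps a gene on the opposite strand.

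Ribosomal protein genes were higher for 23 of 81 members and lower for 0, but the median difference was small, 0.15, with median changes of 0.41 in KO and 0.29 in WT. Rps27a had the smallest p. It measured 129.7 and 122 CPM in WT and 112 and 105 CPM in KO at day 1, and 119 and 129 CPM in WT and 172 and 173 CPM in KO at day 28, with KO slightly below WT at day 1 and above it at day 28 and a difference of 0.70 ± 0.11 (adjusted p = 0.000133). Among the alternative fits, the count with a higher change was 15 with the 8 libraries alone, 9 without KO day 1 replicate 1, 14 without KO day 1 replicate 2, 13 without KO day 28 replicate 1, and 11 without WT day 1 replicate 1. For a lower change the count was 1 without WT day 1 replicate 2 and with no filter. Many ribosomal protein genes have processed copies that can share reads.

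Of 35 ER chaperones and folding factors, 33 rose in KO and 32 in WT from day 1 to day 28. Their median change was 1.85 in KO and 1.36 in WT. The change was steeper in KO for most called members: 20 had a higher change in KO and 1, Dnajc10, a lower change, with a median difference of 0.36. Refitted, the count with a higher change was 13 without WT day 1 replicate 2. Members with a lower change numbered 0 without KO day 1 replicate 1, KO day 1 replicate 2, KO day 28 replicate 1, KO day 28 replicate 2, WT day 1 replicate 1 or WT day 1 replicate 2 and with the 8 libraries alone. At day 28, 18 members were higher in KO and 4 lower, whereas at day 1 5 were higher and 13 lower.

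Hsp90b1, the ER paralog of HSP90, measured 1251 and 1204 CPM in WT and 1278 and 1252 CPM in KO at day 1, and 9628 and 12490 CPM in WT and 20960 and 19450 CPM in KO at day 28. The lines lay close together at day 1, and at day 28 both KO libraries were far above both WT libraries. The difference was 0.83 ± 0.12 (adjusted p = 5.65e-05) on top of a WT change of 3.17 ± 0.09. Herpud1, a component of ER-associated degradation, measured 81.4 and 87.9 CPM in WT and 45.5 and 40.5 CPM in KO at day 1, and 305 and 218 CPM in WT and 319 and 293 CPM in KO at day 28, with a difference of 1.20 ± 0.15 (adjusted p = 8.41e-06). Creld2, a secreted ER stress protein, measured 57.5 and 55.7 CPM in WT and 70.8 and 67.7 CPM in KO at day 1, and 666 and 744 CPM in WT and 1396 and 1349 CPM in KO at day 28, with a difference of 0.67 ± 0.10 (adjusted p = 4.09e-05). Hspa5, which encodes the chaperone BiP, rose in both lines. It measured 1012 and 1062 CPM in WT and 1014 and 996 CPM in KO at day 1, and 9778 and 10340 CPM in WT and 13110 and 11840 CPM in KO at day 28. Its difference was small, 0.36 ± 0.09 (adjusted p = 0.01). Differences for Pdia4, a disulfide isomerase, and Edem1, which extracts misfolded glycoproteins, were 0.74 and 0.65. Calr, the calcium-binding chaperone calreticulin, did not pass, at -0.10 ± 0.10, nor did Pdia3 (0.27 ± 0.10), P4hb (0.22 ± 0.09), Manf (0.19 ± 0.10) or the sensor gene Ern1 (0.01 ± 0.11).

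The ER stress element was searched in the same windows as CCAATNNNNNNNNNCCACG on both strands. It was found in 9 of 31 windows (29%) of the list and in 16 of all 13470 windows (0.119%). These windows are printed for 2 called members and for Calr, which carried the element and had no call.
Hsp90b1, chr10:86705513-86705572, minus strand: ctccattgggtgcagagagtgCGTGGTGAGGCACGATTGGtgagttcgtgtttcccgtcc
Creld2, chr15:88819499-88819558, plus strand: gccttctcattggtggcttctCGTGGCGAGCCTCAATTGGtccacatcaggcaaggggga
Calr, chr8:84847055-84847114, minus strand: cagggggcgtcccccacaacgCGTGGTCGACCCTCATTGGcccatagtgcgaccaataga
Capitals mark the element, which in these windows lies in reverse orientation to the printed strand. The element was also in the windows of Canx, Dnajc3, Hspa5, Pdia6 and Syvn1, which were called higher, and of Derl3, which was not called.

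Hypoxia targets are genes activated by the hypoxia-inducible factors when oxygen is low. Of 26 members 14 had a higher change in KO and 0 a lower change, with a median difference of 0.59. Their median change was 0.02 in KO and -0.43 in WT. KO was lower for 21 of the 26 at day 1 and for 18 at day 28, and higher for 0 on either day. Across other settings, the count with a higher change was 9 without KO day 1 replicate 1 or WT day 1 replicate 1. Vegfa, the angiogenic growth factor, measured 408 and 423 CPM in WT and 127 and 126 CPM in KO at day 1, and 415 and 381 CPM in WT and 288 and 291 CPM in KO at day 28. WT had no called change while KO rose without reaching WT, and the difference was 1.26 ± 0.09 (adjusted p = 3.05e-09). Ndrg1, a stress-responsive protein, measured 391.5 and 386 CPM in WT and 137 and 129 CPM in KO at day 1, and 311 and 247 CPM in WT and 211 and 216 CPM in KO at day 28. It rose in KO and fell in WT, for a difference of 1.16 ± 0.13 (adjusted p = 1.73e-06).

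Ak4, an adenylate kinase of mitochondria, measured 13.9 and 13.3 CPM in WT and 0.427 and 0.368 CPM in KO at day 1, and 15.3 and 9.25 CPM in WT and 4.07 and 3.33 CPM in KO at day 28, with a difference of 3.31 ± 0.49 (adjusted p = 5.47e-05). The size for Ak4 rests on few reads in KO at day 1. Ero1l, an oxidase that drives disulfide formation in the ER, and Higd1a, a mitochondrial survival factor, had differences of 1.02 and 1.14. Hif1a, the factor itself, did not pass, at 0.01 ± 0.09, and lay between 178 and 207 CPM in all 8 libraries. The core of the hypoxia response element, searched as ACGTG or GCGTG on both strands, was in 25 of 31 windows of the list (80.6%) and in 61.1% of all windows.

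**Figure D4:**
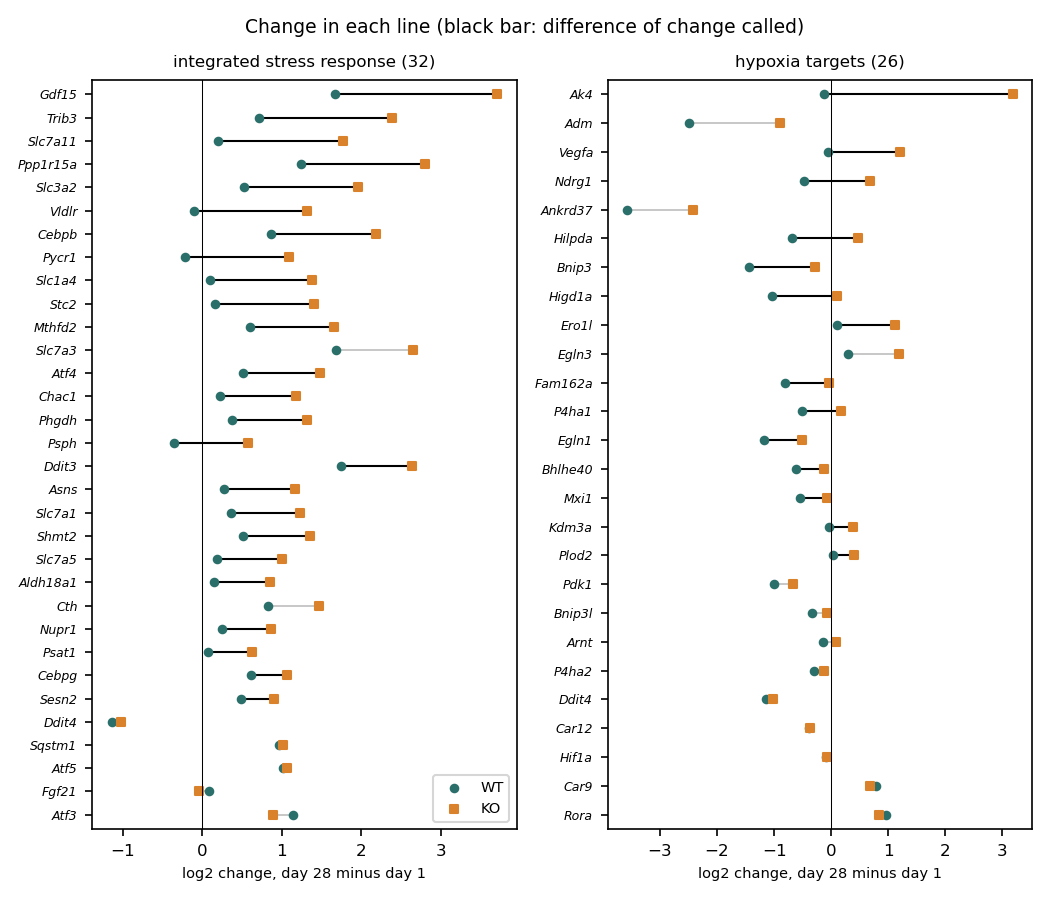
Log2 change from day 1 to day 28 in WT (green circles) and KO (orange squares) for every measured member of the integrated stress response (32) and of the hypoxia targets (26), ordered by the difference, with a black bar where it was called. The orange squares lie to the right of the green circles for 25 called members on the left and 14 on the right; values for members with a few counts, such as Fgf21 and Adm, are uncertain.

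Glycolytic enzymes and glucose transporters convert glucose to pyruvate and lactate. Of 24 members 5 were higher and 1, Pfkfb4, lower, with a median difference of 0.09. Slc2a1, the glucose transporter GLUT1, measured 107 and 104 CPM in WT and 22.9 and 20.2 CPM in KO at day 1, and 87.3 and 71.1 CPM in WT and 44.9 and 49.9 CPM in KO at day 28. KO rose from far below WT and stayed below it, for a difference of 1.55 ± 0.14 (adjusted p = 1.61e-07). Hk2, a hexokinase, measured 104 and 99.3 CPM in WT and 38.7 and 36.7 CPM in KO at day 1, and 109 and 128 CPM in WT and 86.3 and 108 CPM in KO at day 28, with a difference of 1.15 ± 0.14 (adjusted p = 4.26e-06). Slc16a1, a lactate transporter, had a difference of 0.64. The abundant enzymes Gapdh (-0.02 ± 0.14), Pkm (-0.01 ± 0.15) and Ldha (0.32 ± 0.18) did not pass. KO was lower for 18 members at day 1 and for 20 at day 28. Under other choices, the count with a higher change was 3 without KO day 1 replicate 2 or WT day 1 replicate 1 and with the 8 libraries alone or DESeq2, 8 with no filter, and 14 without WT day 28 replicate 1. For a lower change the count was 0 without KO day 1 replicate 1, WT day 1 replicate 1, WT day 1 replicate 2 or WT day 28 replicate 1 and with DESeq2, 2 with no filter, and 5 without WT day 28 replicate 2. The call for Pfkfb4 was lost at -0.74 (adjusted p = 0.0928) without KO day 1 replicate 1, -0.58 (adjusted p = 0.147) without KO day 28 replicate 2, -0.81 (adjusted p = 0.0629) without WT day 1 replicate 1, -0.79 (adjusted p = 0.0651) without WT day 1 replicate 2, -0.72 (adjusted p = 0.0556) without WT day 28 replicate 1 and -0.80 (adjusted p = 0.0582) with DESeq2.

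Interferon-stimulated genes encode antiviral sensors, effectors and the STAT and IRF factors that induce them. Of 33 members 20 had a lower change in KO and 0 a higher change, with a median difference of -0.98. From day 1 to day 28, 32 members rose in WT and 23 in KO, with a median change of 2.06 in WT and 1.00 in KO. At day 28 all 33 were lower in KO, whereas at day 1 14 were lower and 3 higher.

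Eif2ak2, which encodes the double-stranded RNA kinase PKR, measured 110.2 and 114 CPM in WT and 144 and 141 CPM in KO at day 1, and 199 and 203 CPM in WT and 115 and 126 CPM in KO at day 28. WT rose while KO fell, and the lines exchanged order. Its difference was -1.08 ± 0.10 (adjusted p = 1.16e-07). Stat2, a subunit of the interferon-activated factor ISGF3, measured 29.8 and 28.2 CPM in WT and 43.0 and 43.4 CPM in KO at day 1, and 76.1 and 71.0 CPM in WT and 41.1 and 46.5 CPM in KO at day 28. KO had no called change (0.02 ± 0.09), and the difference was -1.32 ± 0.12 (adjusted p = 2.08e-07). Ddx58, the sensor RIG-I, measured 35.6 and 38.1 CPM in WT and 32.6 and 34.4 CPM in KO at day 1, and 126 and 126 CPM in WT and 37.6 and 47.9 CPM in KO at day 28. The lines were close at day 1, and at day 28 WT was far above KO, for a difference of -1.41 ± 0.13 (adjusted p = 2.09e-07).

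Irf7, the master factor of type I interferon induction, measured 3.90 and 5.91 CPM in WT and 5.55 and 5.74 CPM in KO at day 1, and 34.3 and 25.8 CPM in WT and 7.18 and 9.71 CPM in KO at day 28, with a difference of -2.02 ± 0.29 (adjusted p = 4.12e-05). Xaf1, an apoptosis-promoting effector, had a difference of -1.11 ± 0.15 (adjusted p = 1.64e-05). Isg15, a ubiquitin-like modifier, measured 11.7 and 11.6 CPM in WT and 5.04 and 5.81 CPM in KO at day 1, and 38.4 and 38.2 CPM in WT and 5.88 and 10.3 CPM in KO at day 28, with a difference of -1.12 ± 0.27 (adjusted p = 0.0047). Ifit3b had 3 and 3 counts in WT and 6 and 5 in KO at day 1, and 54 and 30 in WT and 0 and 2 in KO at day 28. It has near-identical copies. Members not called included Ifi44 (-1.30 ± 0.56), Bst2 (-0.54 ± 0.24) and Usp18 (-0.95 ± 0.48), all of which rose in both lines. Irf7 overlaps Phrf1 on the opposite strand.

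The interferon response element was searched as GAAANNGAAA on both strands. It was found in 10 of 26 windows (38.5%) of the list and in 2.95% of all windows. Bst2, which was not called, carried it too. A member that rose in WT is shown for each orientation, with 1 match in capitals. The Isg15 stretch holds 2 further overlapping matches that are not in capitals or only in part.
Isg15, chr4:156200850-156200909, minus strand: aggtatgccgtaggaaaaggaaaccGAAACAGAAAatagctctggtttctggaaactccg
Stat2, chr10:128270251-128270310, plus strand: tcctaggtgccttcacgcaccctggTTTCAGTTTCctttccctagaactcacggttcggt

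Related immune lists held calls in both directions. Of 17 guanylate-binding and immunity-related GTPases 4 were lower and 1 higher, and the 3 smallest p among the lower ones belonged to Slfn9 (-1.23), Irgm2 (-1.27) and Gbp3 (-1.79). The higher one was Irf1, at 0.35. The median difference of these GTPases was -0.81, with 13 members below 0 and 4 above. In KO at day 28, 11 were lower than in WT and 1 higher. Slfn9, a Schlafen family member, measured 146 and 174 CPM in WT and 249 and 249.8 CPM in KO at day 1, and 259.5 and 261 CPM in WT and 183 and 162 CPM in KO at day 28. In other fits, the count with a higher change was 0 without KO day 1 replicate 1, KO day 1 replicate 2, KO day 28 replicate 1, KO day 28 replicate 2, WT day 1 replicate 1 or WT day 1 replicate 2 and with the 8 libraries alone, DESeq2, library totals only or no filter. Of 22 genes for MHC class I and antigen presentation 4 were higher and 4 lower. H2-K1, a classical class I heavy chain, measured 71.6 and 71.1 CPM in WT and 29.0 and 28.7 CPM in KO at day 1, and 328 and 325 CPM in WT and 269 and 277 CPM in KO at day 28. It rose in both lines and more steeply in KO, with a difference of 1.05 ± 0.09 (adjusted p = 8.44e-08). Psmb8, an immunoproteasome subunit, had a difference of 1.32. Tapbp, which loads peptide onto class I, went the other way (-1.10), as did B2m, the light chain (-0.47). H2-K1 and H2-Q6 may share reads with other class I genes.

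Actin and focal adhesion genes, many of them targets of the factor SRF, had a lower change in KO. Of 31 members 20 were lower and 0 higher, with a median difference of -0.43. Among the alternative fits, the count with a higher change was 1 without KO day 28 replicate 2 or WT day 28 replicate 1 and with DESeq2, limma-voom or no filter. The median change was -0.75 in KO and -0.33 in WT. At day 1 24 were higher in KO and 3 lower, and at day 28 6 were higher and 9 lower. Cnn3, an actin-binding calponin, measured 227 and 236 CPM in WT and 383 and 364 CPM in KO at day 1, and 255 and 223 CPM in WT and 182 and 179 CPM in KO at day 28. KO started above WT and ended below it without overlap, for a difference of -1.10 ± 0.10 (adjusted p = 7.97e-08). Actb, cytoplasmic actin, measured 1244 and 1243 CPM in WT and 1708 and 1767 CPM in KO at day 1, and 1037 and 927 CPM in WT and 906 and 929 CPM in KO at day 28, with a difference of -0.58 ± 0.09 (adjusted p = 7.45e-05). Tpm2, a tropomyosin, measured 379 and 354 CPM in WT and 494 and 512 CPM in KO at day 1, and 261 and 209 CPM in WT and 186 and 150.3 CPM in KO at day 28, with a difference of -0.95 ± 0.13 (adjusted p = 1.93e-05).

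Mylk, myosin light chain kinase, rose in WT and fell in KO, at a difference of -0.93 ± 0.11 (adjusted p = 5.83e-06). Zyx, the adhesion protein zyxin, had a difference of -0.88 and overlaps Epha1 on the opposite strand. Srf itself (0.08 ± 0.11), Myh9 (0.27 ± 0.10) and Tagln (-0.05 ± 0.23) did not pass. The CArG box, the SRF element, was found on both strands in 5 of 30 windows (16.7%) of the list and in 1.37% of all windows. These windows of called members are shown with the box in capitals.
Cnn2, chr10:79988519-79988578, plus strand: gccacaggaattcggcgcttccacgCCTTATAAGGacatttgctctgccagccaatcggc
Vcl, chr14:20929148-20929207, plus strand: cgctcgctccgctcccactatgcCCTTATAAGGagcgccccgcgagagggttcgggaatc
Cnn2, another calponin, and Vcl, which encodes vinculin, had differences of -0.62 and -0.51. The box was also in the window of Srf, which was not called.

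Mitochondrially encoded transcripts had a lower change in KO for 9 of 12 members and a higher change for 0, with a median difference of -0.81. KO was higher for 9 at day 1 and lower for 1 at day 28. Refitted, the count with a lower change was 5 without WT day 1 replicate 1 and with DESeq2. mt-Nd1, a subunit of complex I, measured 1299 and 1689 CPM in WT and 2682 and 2695 CPM in KO at day 1, and 2146 and 1803 CPM in WT and 2113 and 1905 CPM in KO at day 28. The replicates of WT at day 1 differed from each other, and KO was above both. Its difference was -0.82 ± 0.14 (adjusted p = 0.000274). mt-Cytb, of complex III, had -0.87 ± 0.17 (adjusted p = 0.000732). The share of all counts on these genes was 1.35% and 1.81% in WT and 2.31% and 2.31% in KO at day 1, and 2.02% and 1.74% in WT and 1.73% and 1.47% in KO at day 28. The part of this share in the results was not tested. Among 54 genes of the respiratory chain encoded in the nucleus, 2 were higher and 3 lower. Across other settings, the count with a higher change was 1 without KO day 1 replicate 2, KO day 28 replicate 2 or WT day 1 replicate 1 and with DESeq2, 0 without KO day 1 replicate 1, and 4 without WT day 28 replicate 2.

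**Figure D5:**
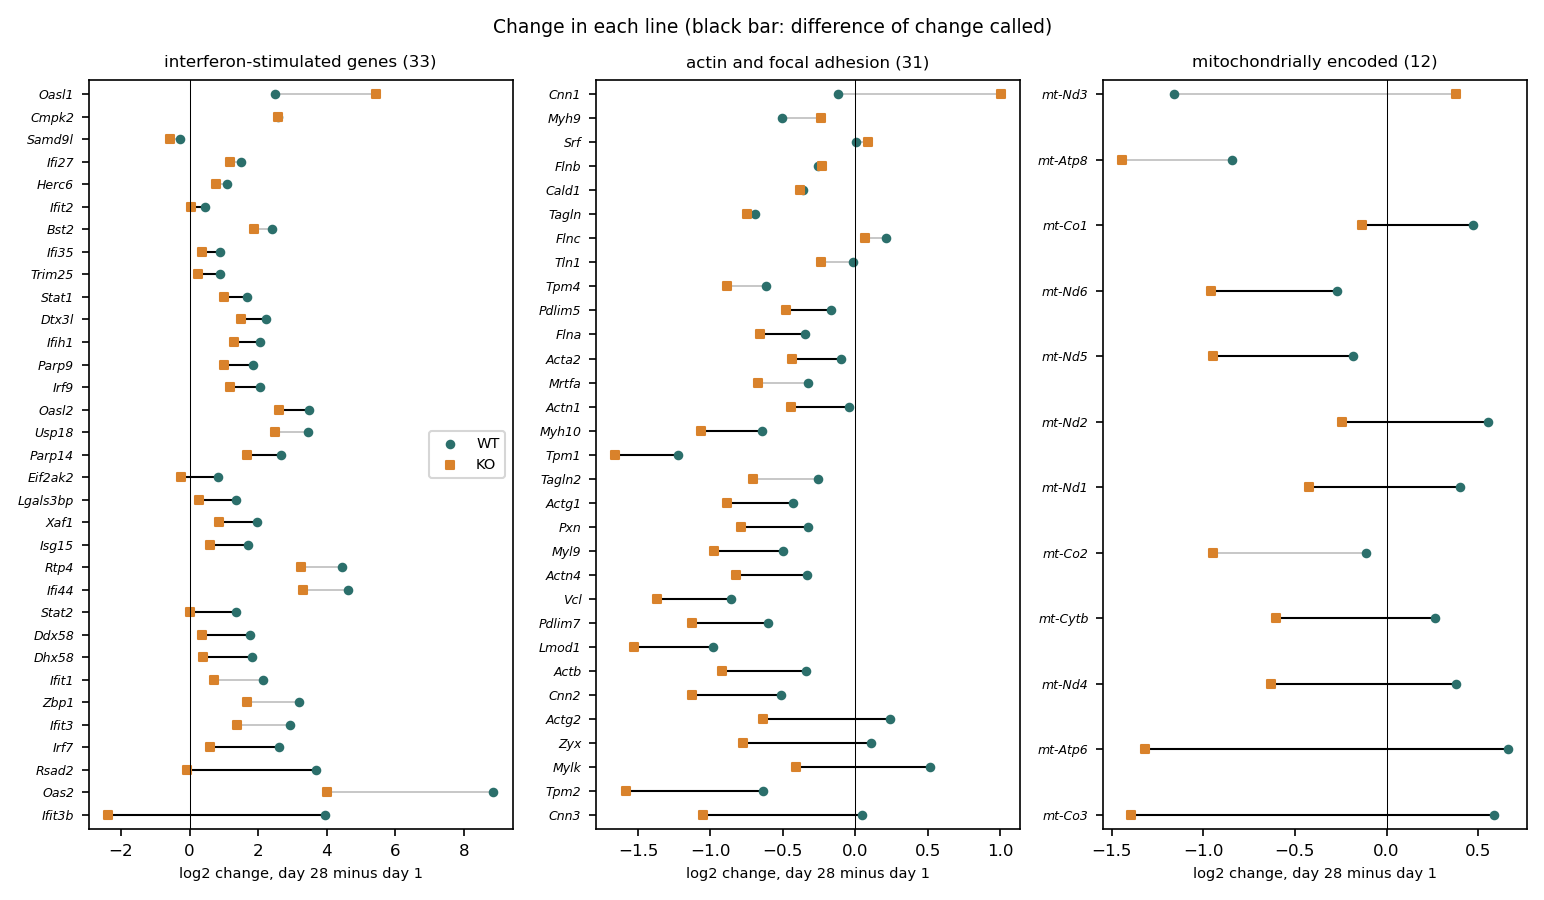
Log2 change from day 1 to day 28 in WT (green circles) and KO (orange squares) for every measured interferon-stimulated gene (33), actin or focal adhesion gene (31) and mitochondrially encoded gene (12), with a black bar where the difference was called. The orange squares lie to the left for 20, 20 and 9 called members; values at the ends of the first panel (Oasl1, Oas2, Ifit3b) rest on a few counts.

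Mechanically gated channels and connexins are the proteins by which osteocytes are thought to read load. Of 21 members 3 were higher and 5 lower. The higher ones were Piezo1, Piezo2 and Kcnk2. Piezo2, the paralog of Piezo1, measured 30.6 and 30.0 CPM in WT and 0.940 and 1.03 CPM in KO at day 1, and 33.1 and 31.2 CPM in WT and 3.98 and 3.74 CPM in KO at day 28. KO was far below WT on both days and recovered a small part of the gap, with a difference of 1.86 ± 0.29 (adjusted p = 9.59e-05). Kcnk2, the potassium channel TREK-1, measured 4.88 and 5.38 CPM in WT and 2.48 and 2.35 CPM in KO at day 1, and 11.8 and 9.58 CPM in WT and 14.6 and 13.2 CPM in KO at day 28, with a difference of 1.46 ± 0.27 (adjusted p = 0.00057). Among the lower ones, Gjc1, connexin 45, measured 50.4 and 48.8 CPM in WT and 66.0 and 61.7 CPM in KO at day 1, and 16.8 and 18.2 CPM in WT and 14.4 and 13.5 CPM in KO at day 28, with a difference of -0.69 ± 0.14 (adjusted p = 0.00113), and P2rx7, an ATP-gated channel, had -0.60 ± 0.14 (adjusted p = 0.00313). Gja1, the main osteocyte connexin, did not pass (0.19 ± 0.13), nor did Trpv4 (-0.07 ± 0.18) or Panx3 (-0.27 ± 0.26). Under other choices, the count with a higher change was 5 without WT day 28 replicate 1. The number with a lower change was 3 without KO day 1 replicate 1 and with the 8 libraries alone, and 2 without KO day 1 replicate 2, WT day 1 replicate 1 or WT day 28 replicate 1.

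Readouts of YAP and TAZ, the transcriptional co-activators that respond to stiffness and stretch, were mixed, with 5 higher and 4 lower of 30. Axl, a receptor kinase, rose in WT and fell in KO, with a difference of -1.01 ± 0.10 (adjusted p = 2.71e-07). Gadd45a, a stress gene shared with other lists, had 1.17, and Wwtr1, which encodes TAZ, had 0.52. In other fits, the count with a higher change was 3 without KO day 1 replicate 2. Immediate early genes, which respond within minutes to stimuli, were lower for 8 and higher for 2 of 27. Jun, a subunit of AP-1, measured 50.3 and 53.02 CPM in WT and 55.3 and 56.7 CPM in KO at day 1, and 64.1 and 54.5 CPM in WT and 21.97 and 28.9 CPM in KO at day 28. KO at day 28 was the lowest group, and the difference was -1.33 ± 0.14 (adjusted p = 9.67e-07). Egr1, a zinc finger factor, measured 111 and 141 CPM in WT and 139 and 138 CPM in KO at day 1, and 184 and 181 CPM in WT and 118 and 89.2 CPM in KO at day 28, with a difference of -0.96 ± 0.16 (adjusted p = 0.000215). Among the alternative fits, the count with a higher change was 4 without KO day 28 replicate 2 or WT day 28 replicate 1. Members with a lower change numbered 5 without KO day 1 replicate 2 or KO day 28 replicate 2. Jun overlaps a gene on the opposite strand.

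Osteocyte markers are genes that mark the early and late stages of that cell. Of 18 measured markers 4 were lower, 1 was higher and the median difference was -0.11. Pdpn, podoplanin, which shapes the dendrites of early osteocytes, measured 41.6 and 45.9 CPM in WT and 52.8 and 59.9 CPM in KO at day 1, and 49.5 and 35.6 CPM in WT and 14.1 and 19.9 CPM in KO at day 28. KO at day 28 was well below the other groups, for a difference of -1.68 ± 0.19 (adjusted p = 2.32e-06). Dstn, the actin-depolymerising factor destrin, had -0.39 ± 0.09 (adjusted p = 0.00539). Cd44, a hyaluronan receptor, had -0.53 ± 0.13 (adjusted p = 0.00589). Capg, an actin-capping protein, had -0.59 ± 0.15 (adjusted p = 0.00642). Mef2c, a factor that activates Sost, measured 790.4 and 829 CPM in WT and 581 and 576 CPM in KO at day 1, and 318 and 238 CPM in WT and 387 and 261 CPM in KO at day 28. It fell in both lines and less in KO, at 0.70 ± 0.17 (adjusted p = 0.00654), a call that was lost at 0.39 (adjusted p = 0.0592) without KO day 28 replicate 1 and 0.70 (adjusted p = 0.073) with DESeq2. Refitted, the count with a higher change was 0 without KO day 28 replicate 1 and with DESeq2.

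Dmp1, a mineralisation regulator of osteocytes, measured 4.94 and 6.50 CPM in WT and 5.47 and 3.68 CPM in KO at day 1, and 12.8 and 8.17 CPM in WT and 5.80 and 4.96 CPM in KO at day 28. It rose in WT, at 0.89 ± 0.22 (adjusted p = 0.00246), and had no call in KO, at 0.24 ± 0.27, but the difference between these changes did not pass, at -0.65 ± 0.35 (adjusted p = 0.207). Phex, an endopeptidase that controls phosphate, did not pass (-0.68 ± 0.33). Fam20c, the kinase of secreted proteins, was at -0.17 ± 0.13, Irx5 at -0.05 ± 0.18, Cryab at 0.04 ± 0.19 and Tnfrsf11b, osteoprotegerin, at 0.08 ± 0.22, none of them called. Ostn, osteocrin, measured 0.260 and 0.591 CPM in WT and 0 and 0 CPM in KO at day 1, and 13.8 and 16.3 CPM in WT and 5.02 and 5.64 CPM in KO at day 28. It was at 0 in both KO libraries at day 1 and below WT at day 28, and its difference of change was not called. Sost, Mepe, Ptprz1, Ackr3, Wnt1 and Dkk1 were at 4.99 CPM or below in every library and were not called.

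The osteoblast list, which holds bone matrix genes and their regulators, had 5 higher and 2 lower of 23 members and a median difference of -0.04. Higher were Bmp2 and Atf4, given above, and Ibsp, Dlx3 and Phospho1. Ibsp, bone sialoprotein, measured 2720 and 2679 CPM in WT and 1236 and 1179 CPM in KO at day 1, and 1750 and 1309 CPM in WT and 1281 and 825 CPM in KO at day 28. WT fell and KO had no called change, for a difference of 0.62 ± 0.19 (adjusted p = 0.0219). Dlx3, a homeobox factor, had 1.28 ± 0.39 (adjusted p = 0.0237), and Phospho1, a phosphatase that starts mineralisation, had 0.50 ± 0.17 (adjusted p = 0.0387). Spp1, osteopontin, measured 98.9 and 106 CPM in WT and 74.7 and 73.1 CPM in KO at day 1, and 325 and 265 CPM in WT and 117 and 129 CPM in KO at day 28. It rose in both lines and less in KO, for a difference of -0.79 ± 0.12 (adjusted p = 4.81e-05). Alpl, tissue-nonspecific alkaline phosphatase, measured 791 and 842 CPM in WT and 535 and 541 CPM in KO at day 1, and 443 and 292 CPM in WT and 189 and 126 CPM in KO at day 28. It fell in both lines and further in KO, at -0.63 ± 0.20 (adjusted p = 0.0321).

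Across other settings, the count with a higher change was 2 without KO day 1 replicate 2, KO day 28 replicate 1, WT day 1 replicate 1 or WT day 1 replicate 2 and with the 8 libraries alone or DESeq2, and 3 without KO day 1 replicate 1. For a lower change the count was 1 without KO day 1 replicate 1, KO day 1 replicate 2, KO day 28 replicate 2, WT day 1 replicate 1, WT day 1 replicate 2 or WT day 28 replicate 1 and with DESeq2, 7 with no filter, 4 without KO day 28 replicate 1, and 9 without WT day 28 replicate 2. The calls for Ibsp, Dlx3, Phospho1 and Alpl were lost in several fits. Ibsp was at 0.65 (adjusted p = 0.0584) without KO day 1 replicate 1, 0.59 (adjusted p = 0.092) without KO day 1 replicate 2, 0.27 (adjusted p = 0.204) without KO day 28 replicate 1, 0.62 (adjusted p = 0.068) without WT day 1 replicate 1, 0.63 (adjusted p = 0.0584) without WT day 1 replicate 2, 0.61 (adjusted p = 0.0639) with the 8 libraries alone and 0.62 (adjusted p = 0.169) with DESeq2. Dlx3 was at 1.00 (adjusted p = 0.152) without KO day 1 replicate 2, 0.88 (adjusted p = 0.164) without KO day 28 replicate 1, 1.33 (adjusted p = 0.0511) without WT day 1 replicate 1, 1.23 (adjusted p = 0.0696) without WT day 1 replicate 2, 1.28 (adjusted p = 0.0654) with the 8 libraries alone and 1.32 (adjusted p = 0.134) with DESeq2. Phospho1 was at 0.48 (adjusted p = 0.11) without KO day 1 replicate 1, 0.53 (adjusted p = 0.0863) without KO day 1 replicate 2, 0.29 (adjusted p = 0.278) without KO day 28 replicate 1, 0.56 (adjusted p = 0.0551) without WT day 1 replicate 1, 0.45 (adjusted p = 0.121) without WT day 1 replicate 2, 0.36 (adjusted p = 0.109) without WT day 28 replicate 2, 0.50 (adjusted p = 0.0826) with the 8 libraries alone, 0.51 (adjusted p = 0.0589) with DESeq2, 0.48 (adjusted p = 0.0508) with the filter at 10 CPM, 0.47 (adjusted p = 0.052) with library totals only and 0.48 (adjusted p = 0.0553) with limma-voom. Alpl was at -0.65 (adjusted p = 0.0785) without KO day 1 replicate 1, -0.62 (adjusted p = 0.0961) without KO day 1 replicate 2, -0.36 (adjusted p = 0.209) without KO day 28 replicate 2, -0.58 (adjusted p = 0.12) without WT day 1 replicate 1, -0.68 (adjusted p = 0.0654) without WT day 1 replicate 2, -0.30 (adjusted p = 0.133) without WT day 28 replicate 1, -0.64 (adjusted p = 0.0725) with the 8 libraries alone and -0.63 (adjusted p = 0.232) with DESeq2.

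The bone collagen genes did not pass. Col1a1 measured 4884 and 4740 CPM in WT and 6416 and 6512 CPM in KO at day 1, and 3054 and 2046 CPM in WT and 2813 and 1710 CPM in KO at day 28, with a difference of -0.60 ± 0.22 (adjusted p = 0.0596). The replicates at day 28 differed in both lines, with replicate 2 the lower. Col1a2 was at -0.24 ± 0.15 and Sparc, osteonectin, at -0.13 ± 0.17. Among the transcription factors of the lineage, Runx2 was not called (adjusted p = 0.998), with Sp7 at 0.60 ± 0.23, Dlx5 at -0.14 ± 0.15 and Msx2 at 1.04 ± 0.75. Osteocalcin genes rose in WT and were not called in the difference, with Bglap at -0.54 ± 0.45 and Bglap2 at -0.57 ± 0.22. Smpd3 (-0.69 ± 0.30), Enpp1 (0.06 ± 0.33), Ank (-0.30 ± 0.13), Ifitm5 (-0.04 ± 0.28), Pth1r (0.04 ± 0.24) and Cdh11 (-0.25 ± 0.11) also did not pass.

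Factors by which bone cells regulate osteoclasts had 3 higher and 2 lower of 8. Lif, a cytokine of the interleukin-6 family, measured 5.98 and 7.68 CPM in WT and 2.73 and 2.43 CPM in KO at day 1, and 7.05 and 10.4 CPM in WT and 17.6 and 15.01 CPM in KO at day 28. It crossed from below WT to above WT, for a difference of 2.31 ± 0.30 (adjusted p = 1.32e-05). Csf1, a survival factor of osteoclast precursors, measured 153 and 171 CPM in WT and 123 and 118 CPM in KO at day 1, and 347 and 340.3 CPM in WT and 353 and 404 CPM in KO at day 28, with a difference of 0.57 ± 0.11 (adjusted p = 0.000548). Wnt5a, a ligand that favours osteoclast formation, had 1.06 ± 0.14 (adjusted p = 1.51e-05). Sema3a, a semaphorin that restrains osteoclasts, measured 49.0 and 54.9 CPM in WT and 101 and 96.9 CPM in KO at day 1, and 51.5 and 56.2 CPM in WT and 47.8 and 45.2 CPM in KO at day 28. KO fell from a day 1 level above WT while WT had no called change, for a difference of -1.14 ± 0.11 (adjusted p = 3.18e-07). Cxcl12, a chemokine, measured 79.5 and 87.2 CPM in WT and 153 and 153 CPM in KO at day 1, and 93.5 and 76.3 CPM in WT and 69.6 and 75.9 CPM in KO at day 28, with a difference of -1.10 ± 0.12 (adjusted p = 8.06e-07). Tnfrsf11b (0.08 ± 0.22), Ccl2 (-0.21 ± 0.52) and Il34 (-0.12 ± 0.59) did not pass.

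Extracellular matrix genes held calls in both directions. The basement membrane collagen Col4a2 measured 67.4 and 70.7 CPM in WT and 9.48 and 9.42 CPM in KO at day 1, and 150.2 and 131 CPM in WT and 66.9 and 75.4 CPM in KO at day 28, with a difference of 1.89 ± 0.13 (adjusted p = 3.58e-09). Its exons and those of Col4a1 overlap on opposite strands. Col18a1 had 1.39 ± 0.10 (adjusted p = 8.99e-09) and Col15a1 2.46 ± 0.20 (adjusted p = 2.45e-08). In both of these genes KO rose from well below WT at day 1 to near the WT level. Col12a1, a fibril-associated collagen, measured 712 and 745 CPM in WT and 826 and 839.8 CPM in KO at day 1, and 386 and 299.7 CPM in WT and 162 and 126 CPM in KO at day 28. It fell in both lines and further in KO, for a difference of -1.45 ± 0.14 (adjusted p = 2.71e-07). Over 29 collagen chains 8 were higher and 9 lower. Under other choices, the count with a higher change was 5 without KO day 1 replicate 1, KO day 1 replicate 2 or KO day 28 replicate 1.

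Collagen processing enzymes were higher for 9 and lower for 4 of 28. Loxl4, a crosslinking oxidase, measured 70.3 and 74.6 CPM in WT and 24.5 and 22.4 CPM in KO at day 1, and 94.9 and 93.5 CPM in WT and 70.3 and 58.3 CPM in KO at day 28, with a difference of 1.07 ± 0.13 (adjusted p = 4.55e-06). P3h2, a prolyl hydroxylase of basement membrane collagen, had 2.24 ± 0.36 (adjusted p = 0.000139). Pcolce, an enhancer of procollagen cleavage, had -0.74 ± 0.13 (adjusted p = 0.000352), and Loxl3 had -0.92 ± 0.14 (adjusted p = 5.44e-05). In other fits, the count with a higher change was 5 without KO day 1 replicate 1. The number with a lower change was 8 without WT day 28 replicate 2.

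Small leucine-rich proteoglycans and matricellular proteins were lower for 10 and higher for 5 of 21, with a median difference of -0.41. Mgp, the matrix Gla protein that inhibits mineral deposition, measured 67.0 and 76.5 CPM in WT and 97.5 and 94.7 CPM in KO at day 1, and 39.5 and 19.8 CPM in WT and 8.74 and 5.98 CPM in KO at day 28. KO at day 28 was the lowest group, and the difference was -2.48 ± 0.30 (adjusted p = 4.34e-06). Vcan, a large chondroitin sulfate proteoglycan, measured 29.5 and 30.3 CPM in WT and 106 and 103 CPM in KO at day 1, and 75.0 and 58.7 CPM in WT and 73.5 and 69.5 CPM in KO at day 28. It rose in WT and fell in KO until the lines overlapped, for a difference of -1.72 ± 0.13 (adjusted p = 6.39e-09). Thbs2, a thrombospondin, had -1.19 ± 0.11 (adjusted p = 1.52e-07). Postn, periostin, fell in WT, had no called change in KO and had a higher difference, 1.11 ± 0.14 (adjusted p = 7.21e-06).

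Matrix proteases and their inhibitors were lower for 12 and higher for 3 of 25, with a median difference of -0.38. Mmp2, gelatinase A, measured 184 and 174 CPM in WT and 309.6 and 326 CPM in KO at day 1, and 171 and 151 CPM in WT and 77.9 and 84.9 CPM in KO at day 28. KO was far above WT at day 1 and far below it at day 28, for a difference of -1.81 ± 0.11 (adjusted p = 3.64e-10). Timp2, its inhibitor and partner, measured 559 and 563 CPM in WT and 1003 and 1024 CPM in KO at day 1, and 571 and 460.0 CPM in WT and 423 and 397 CPM in KO at day 28, with a difference of -1.19 ± 0.11 (adjusted p = 1.45e-07). Adamts1, which cleaves versican, had -1.33 ± 0.13 (adjusted p = 3.15e-07). The plasminogen activators Plat and Plau had -1.55 ± 0.20 (adjusted p = 1.19e-05) and -1.40 ± 0.20 (adjusted p = 2.65e-05). Mmp13, the collagenase of late osteoblasts, did not pass (0.21 ± 0.45). Integrins and laminins were lower for 7 and higher for 2 of 27. Itgb8 had -2.05 ± 0.34 (adjusted p = 0.000192) and Itga6 -1.43 ± 0.25 (adjusted p = 0.000286). Among the alternative fits, the count with a higher change was 1 without KO day 1 replicate 2, WT day 1 replicate 1 or WT day 1 replicate 2 and with the 8 libraries alone, DESeq2 or the filter at 10 CPM, and 0 without KO day 1 replicate 1 or KO day 28 replicate 2.

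The Wnt and BMP families, which signal between bone cells, held calls in both directions. Among 36 Wnt ligands, receptors and inhibitors 11 were lower and 4 higher. Fzd5, a Wnt receptor, measured 274 and 281 CPM in WT and 269 and 262 CPM in KO at day 1, and 209 and 246 CPM in WT and 699.6 and 595 CPM in KO at day 28. KO rose and WT fell, for a difference of 1.57 ± 0.11 (adjusted p = 3.61e-09). Sfrp1, a secreted Wnt antagonist, measured 3.97 and 4.92 CPM in WT and 62.4 and 58.4 CPM in KO at day 1, and 4.19 and 2.97 CPM in WT and 13.2 and 14.9 CPM in KO at day 28. KO was far above WT on both days and the gap narrowed, for a difference of -1.80 ± 0.24 (adjusted p = 1.86e-05). Refitted, the count with a lower change was 7 without KO day 1 replicate 2 or WT day 1 replicate 1, 6 without KO day 28 replicate 2, and 5 without WT day 28 replicate 1. Of 22 targets of beta-catenin 9 were lower and 3 higher. Apcdd1, a Wnt-induced inhibitor, measured 16.5 and 14.2 CPM in WT and 50.2 and 53.7 CPM in KO at day 1, and 8.93 and 6.52 CPM in WT and 7.09 and 7.13 CPM in KO at day 28, with a difference of -1.89 ± 0.20 (adjusted p = 9.67e-07). Ccnd1, cyclin D1, had 0.49 ± 0.10 (adjusted p = 0.00128). Across other settings, the count with a higher change was 1 with the filter at 10 CPM. The number with a lower change was 5 without KO day 28 replicate 2.

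Of 30 genes of the BMP and TGF-beta pathway 7 were higher and 4 lower. Under other choices, the count with a lower change was 7 without WT day 28 replicate 2. Besides Bmp2, the higher ones included Ltbp1, which stores TGF-beta in matrix and measured 196 and 192 CPM in WT and 223 and 225 CPM in KO at day 1, and 131 and 131 CPM in WT and 275 and 261 CPM in KO at day 28. It fell in WT and rose in KO, for a difference of 0.83 ± 0.08 (adjusted p = 5.12e-07). Gdf15, a stress-induced ligand also counted in the integrated stress response, had 2.05 ± 0.33 (adjusted p = 0.000134). Tgfbi, an induced matrix protein, had -1.45 ± 0.21 (adjusted p = 3.29e-05). Of 37 genes of axon guidance 13 were lower and 8 higher. Plxna2, a semaphorin receptor, measured 83.6 and 81.3 CPM in WT and 196 and 191 CPM in KO at day 1, and 104 and 65.5 CPM in WT and 64.9 and 66.8 CPM in KO at day 28, with a difference of -1.60 ± 0.17 (adjusted p = 9.75e-07). Epha3, an ephrin receptor, had 1.36 ± 0.18 (adjusted p = 1.75e-05). In other fits, the count with a higher change was 5 without KO day 1 replicate 1, KO day 1 replicate 2 or WT day 1 replicate 1 and with the 8 libraries alone.

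Transcription factors of body patterning are read against the 20.0% of all genes that were called. Of 32 Hox genes 3 were higher and 1 lower, a share below that of all genes. Hoxc6, the lower 1, had a difference of -0.64 ± 0.15 (adjusted p = 0.00519). Among the alternative fits, the count with a lower change was 2 without WT day 28 replicate 1. Of 41 other patterning factors 4 were higher and 8 lower. Pitx1, a factor of hindlimb identity, measured 36.0 and 35.2 CPM in WT and 39.8 and 38.4 CPM in KO at day 1, and 13.1 and 17.1 CPM in WT and 30.0 and 30.3 CPM in KO at day 28. The lines were close at day 1, and WT fell further than KO, for a difference of 0.88 ± 0.15 (adjusted p = 0.000275). Refitted, the count with a higher change was 2 without KO day 1 replicate 1, KO day 1 replicate 2, KO day 28 replicate 2 or WT day 1 replicate 2 and with the 8 libraries alone or library totals only. For a lower change the count was 4 without WT day 1 replicate 1.

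Among the genes that crossed from higher to lower in KO with the smallest p, 2 belong to no list above, Ptn and Pde8a. Ptn, the growth factor pleiotrophin, measured 95.3 and 87.6 CPM in WT and 205 and 199 CPM in KO at day 1, and 163 and 146 CPM in WT and 103 and 105 CPM in KO at day 28. KO was higher at day 1 and lower at day 28 with no overlap, for a difference of -1.72 ± 0.11 (adjusted p = 7.37e-10). Pde8a, a phosphodiesterase of cyclic AMP, measured 98.2 and 97.3 CPM in WT and 206 and 196 CPM in KO at day 1, and 94.7 and 83.2 CPM in WT and 69.4 and 68.3 CPM in KO at day 28, with a difference of -1.41 ± 0.10 (adjusted p = 3.05e-09).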

How the data were processed

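Reads were aligned and counted with STAR and featureCounts of Subread on mm10, with edgeR also named, per the submitters' processing notes. For annotation, strand setting and multi-mapping reads, the choice made is not given in the sources used here. All deposited values are raw counts per gene in 1 table of 32248 rows and 12 libraries, made by the authors. Of these rows 9345 held no counts and 3 transgene rows were kept out of the tests.

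From the counts, filterByExpr (minimum count 10, minimum total 15) kept 13772 genes, of which 13656 (99.2%) matched a symbol of the GRCm38 annotation. TMM scaling and edgeR 4.0.16 (R 4.3.3) with a design of 6 groups and no covariate gave the quasi-likelihood F test of each contrast, two-sided, with Benjamini-Hochberg adjustment, called below 0.05. The standard error is the log2 value divided by the square root of F. The spread had 6 residual degrees of freedom and a prior of 14.6. The script was tested on simulated counts. Promoters are from RefSeq.

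Named genes are Piezo1, the 12 highest and lowest differences among called genes (average log2 CPM of at least 1, more than 3 counts per group), the 6 smallest p, the 5 highest and lowest of opposite direction, the 4 at each end with 3 counts or fewer in a group, the 4 crossing genes with the smallest p in each direction, and from each list up to 5 called members with the smallest p, with osteocyte and osteoblast lists in full. Some genes that this rule names are not reported here. Genes outside this rule, such as those shown for their promoters, Hspa5 and Isg15, were added after their values were seen. The members and lists were chosen with earlier results of these data known.

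Alternatives were library totals only, no filter, at least 10 CPM in 2 libraries, the 8 libraries alone, a replicate block, DESeq2 1.42.0, limma-voom (limma 3.58.1) and each of the 8 libraries left out.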

Additional observations from a re-analysis of the deposited data

Results flagged for a closer look

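The change from day 1 to day 28 differed between KO and WT for 2759 of 13772 genes by the test of the difference itself, and 224 genes moved in called opposite directions. The genes at the ends of that class were Ramp1 (2.58), Sox6 (2.42), Hoxb9 (2.35), Rerg (2.06) and Cdsn (1.95), which rose in KO and fell in WT, and Lamb1 (-2.84), C2 (-2.57), Aldh3a1 (-2.52), Cav1 (-2.39) and Rgs2 (-2.22), which fell in KO and rose in WT, in log2 units of the difference of change. C2 lost its call at -2.39 (adjusted p = 0.0587) without KO day 1 replicate 2.

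The row for a YAP and EGFP transgene is outside the genes tested. It held 224 counts in WT day 28 replicate 1 and 75 in replicate 2, against 7 and 2 in KO at day 28. At day 1 it held 2 and 3 in WT and 1 and 0 in KO. In the day 14 libraries it held 82 and 45 in WT and 1 and 3 in KO.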

How the results depend on the processing

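Over 15 alternatives, the calls shared with the reported 2759 kept their sign in all of them. Of 221 named genes with a call, 188 kept it in every alternative that tested them and 0 reversed. Most of these genes were picked for a small p or a large difference, which favours a call that is kept. They do not stand for all 2759 calls. Of those, 74.2% were kept with DESeq2, 77.6% with the 8 libraries alone and 96.9% with limma-voom. The total was 2055 with DESeq2, 2801 with limma-voom and 2152 with the 8 libraries alone. It was 2665 with library totals only, 2820 with no filter and 2589 with at least 10 CPM in 2 libraries. Leaving out 1 library gave between 1703 and 3919 calls, with 1810 without KO day 1 replicate 1 and 1703 without KO day 1 replicate 2; for higher calls between 874 and 2047, and for lower calls between 829 and 1872. Higher calls numbered 889, 874 and 946 without KO day 1 replicate 1, KO day 1 replicate 2 and WT day 1 replicate 1, and lower calls 829 without KO day 1 replicate 2. With at least 10 CPM in 2 libraries, 161 genes were higher past 2-fold in place of 273. The part of genes with low counts in this drop was not tested. Opposite directions numbered 139 with DESeq2 in place of 224 and between 133 and 376 with 1 library left out; the cause was not tested. In the fits without a library, the lone library of its group was assumed to vary like the other groups.

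With the replicate number as a block, 2744 genes were called, 2673 of them shared, and no named call was lost. Lysosomal genes with a higher change numbered 3 with the block in place of 1. Deviations of libraries with the same number correlated between -0.11 and 0.235 over pairs of groups. The value of 0.235 belonged to WT day 28 with KO day 28, which both enter the difference of change. The numbers were not taken to pair libraries. The block was the same for all groups and cannot take up a shift limited to day 28, so a pairing on that day was not tested. Genes at a few CPM were limited by their counts, as the errors above show.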

Other observations

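Genes of sterol and fatty acid synthesis, which SREBP factors induce, had a lower change in KO for 14 and a higher change for 1 of 33, with a median difference of -0.28. Elovl6, a fatty acid elongase, measured 21.3 and 21.6 CPM in WT and 43.9 and 43.1 CPM in KO at day 1, and 24.6 and 17.0 CPM in WT and 13.7 and 17.8 CPM in KO at day 28. KO was above WT at day 1, and the difference was -1.42 ± 0.19 (adjusted p = 1.78e-05). Ebp, a sterol isomerase, was the member with a higher change, at 0.82 ± 0.12 (adjusted p = 2.79e-05). Lysosomal genes were lower for 14 and higher for 1 of 41, with a median difference of -0.19. Gpnmb, a lysosomal and osteoblast membrane glycoprotein, measured 305 and 288 CPM in WT and 317 and 326 CPM in KO at day 1, and 792 and 805 CPM in WT and 355 and 442 CPM in KO at day 28. It rose far in WT and little in KO, for a difference of -1.12 ± 0.11 (adjusted p = 4.03e-07). Hexa, a subunit of beta-hexosaminidase, rose in both lines and less in KO, at -0.92 ± 0.10 (adjusted p = 1.61e-06), and overlaps Tmem202 on the opposite strand. Across other settings, the count with a higher change was 3 without WT day 28 replicate 2 and with limma-voom, 2 without KO day 28 replicate 1 and with no filter, and 0 without KO day 1 replicate 1.

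Targets of p53 were lower for 7 and higher for 3 of 25. Trp53inp1, a p53-induced stress protein, measured 44.3 and 48.8 CPM in WT and 130.4 and 129 CPM in KO at day 1, and 76.4 and 64.3 CPM in WT and 78.3 and 76.7 CPM in KO at day 28. KO at day 1 was the highest group and the lines lay close at day 28, for a difference of -1.34 ± 0.12 (adjusted p = 1.17e-07). Ccng1, cyclin G1, had -0.90 ± 0.10 (adjusted p = 1.03e-06), and Plk2, a polo-like kinase, had -1.50 ± 0.16 (adjusted p = 6.80e-07). Antioxidant and glutathione genes were lower for 9 and higher for 3 of 32. Under other choices, the count with a higher change was 5 without KO day 28 replicate 1 and with no filter, and 6 without WT day 28 replicate 2. Hmox1, heme oxygenase, measured 58.0 and 63.9 CPM in WT and 61.9 and 60.4 CPM in KO at day 1, and 67.4 and 84.8 CPM in WT and 169.6 and 181 CPM in KO at day 28. KO at day 28 stood alone above the other groups, and the difference was 1.20 ± 0.13 (adjusted p = 1.04e-06). Mitotic and replication genes had 8 calls in each direction among 48. In other fits, the count with a higher change was 5 without KO day 1 replicate 1. For a lower change the count was 5 without KO day 1 replicate 2 or WT day 1 replicate 2, and 4 without KO day 28 replicate 1. Of 9 measured adipocyte markers 1, Klf15, was higher and 1, Cebpa, lower, at -0.66. The higher count was 0 with limma-voom, and the lower count was 0 with the 8 libraries alone or DESeq2. Both also moved in fits that left out a library. Summed adipocyte markers ran from 63.8 CPM in KO at day 1 to 269 CPM in WT at day 28, while Adipoq and Fabp4 lay at 1.77 CPM or below. Klf15, which responds to glucocorticoids, measured 28.3 and 32.7 CPM in WT and 1.03 and 1.18 CPM in KO at day 1, and 146 and 199 CPM in WT and 13.8 and 17.4 CPM in KO at day 28. Its difference was 1.32 ± 0.35 (adjusted p = 0.0103), lost at 1.22 (adjusted p = 0.0792) without KO day 1 replicate 1, 1.43 (adjusted p = 0.0637) without KO day 1 replicate 2 and 1.30 (adjusted p = 0.0823) with limma-voom.

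Of 12 chondrocyte markers 3 were higher and 3 lower. Sox9, the master factor of cartilage, measured 46.4 and 46.1 CPM in WT and 59.3 and 56.0 CPM in KO at day 1, and 59.2 and 52.8 CPM in WT and 36.3 and 34.4 CPM in KO at day 28. It rose in WT and fell in KO, for a difference of -0.99 ± 0.12 (adjusted p = 4.77e-06). Sox6, its partner, went the other way, at 2.42 ± 0.28 (adjusted p = 3.24e-06). Among the alternative fits, the count with a higher change was 1 without KO day 1 replicate 2 or WT day 28 replicate 2 and with the 8 libraries alone. Of 7 fibroblast and tendon markers 3 were lower and 0 higher. S100a4, a calcium-binding protein of fibroblasts, measured 38.2 and 34.1 CPM in WT and 80.0 and 82.3 CPM in KO at day 1, and 37.6 and 17.3 CPM in WT and 11.4 and 11.5 CPM in KO at day 28. KO fell from the highest group to the lowest, for a difference of -2.44 ± 0.29 (adjusted p = 3.53e-06).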
